A study of Mus musculus with 6 samples.

Results

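The Notch receptors, ligands and targets were examined in RNA-seq of colorectal tumors. The group was defined by name and held 10 genes, *Notch1*, *Notch2*, *Notch3*, *Dll1*, *Dll4*, *Jag1*, *Jag2*, *Hes1*, *Hey1* and *Nrarp*, all of which were found once among the 54167 genes of the deposited table. The comparison was between 3 tumors of Trp53fl/fl mice, in which loxP sites surround *Trp53* but no Cre is present and the gene stays intact, and 3 tumors of VP mice, which carry the same floxed alleles together with Pvillin-Cre. The labels give the strain of all 6 as C57BL/6J, and the methods describe male mice of 8 weeks that received the carcinogen azoxymethane (AOM) at 10 mg/kg, followed by repeated 7-day courses of 2.5% dextran sulfate sodium (DSS), which injures and inflames the colon, with tumors examined on day 98. The villin promoter drives Cre in intestinal epithelial cells, so that the vessels, fibroblasts and leukocytes of a VP tumor keep their floxed *Trp53*. The labels number the tumors but do not say that each came from a different mouse, so the p-values measure the spread between these tumors.

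Notch receptors are cut at the cell surface after a ligand on a neighbouring cell binds them, and the freed intracellular domain enters the nucleus, where it joins the DNA-binding protein RBPJ and switches on genes such as those of the Hes and Hey repressors. In the intestine this signal holds progenitor cells and steers them to the absorptive fate, because *Hes1* represses *Atoh1*, the factor that opens the secretory fate. Blood vessels use the same pathway, with *Dll4* as the main endothelial ligand and *Notch3* as a receptor of the mural cells around vessels.

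The promoters of the leading receptor, of the leading ligand and of the leading target with an entry are shown because they are the control regions of the transcripts measured here. RefSeq promoters (GRCm38.p6) were at hand for 8 of the 10 members, and the 250 bases before the start site are printed 5′ to 3′ on the gene's strand, with matches to the N-box (CACNAG, on either strand), a short site bound by Hes repressors, in capitals. *Notch1* is from chr2:26503823-26504072 on the minus strand, *Dll4* from chr2:119325534-119325783 on the plus strand and *Nrarp* from chr2:25180508-25180757 on the plus strand.
Notch1: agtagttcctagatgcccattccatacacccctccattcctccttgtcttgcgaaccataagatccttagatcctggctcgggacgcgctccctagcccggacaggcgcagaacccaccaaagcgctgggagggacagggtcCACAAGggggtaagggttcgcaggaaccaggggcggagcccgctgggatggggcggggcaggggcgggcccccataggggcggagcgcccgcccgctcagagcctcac
Dll4: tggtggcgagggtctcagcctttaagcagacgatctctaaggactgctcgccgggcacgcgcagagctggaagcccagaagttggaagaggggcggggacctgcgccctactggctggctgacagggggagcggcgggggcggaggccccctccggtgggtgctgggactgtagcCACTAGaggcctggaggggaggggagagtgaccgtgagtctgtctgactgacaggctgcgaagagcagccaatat
Nrarp: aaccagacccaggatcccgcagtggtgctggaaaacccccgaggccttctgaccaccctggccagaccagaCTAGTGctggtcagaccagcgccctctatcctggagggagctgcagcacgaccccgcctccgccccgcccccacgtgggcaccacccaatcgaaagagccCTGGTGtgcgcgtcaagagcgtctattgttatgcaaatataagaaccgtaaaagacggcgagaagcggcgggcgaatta

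The 3 promoters held 1, 1 and 2 N-box matches. Of the 9 promoters of the members (*Dll1* has 2 start sites), 5 held at least 1, as did 36.7% of all 32851 promoters of this length. The RBPJ core (TGGGAA, on either strand) was in none of the 9, while 21.6% of all promoters held it, and the p53 half-site was likewise in none of the 9, against 7.13% of all. These letters were looked for in this window alone, and a match is no evidence of binding.

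*Trp53*, the gene that Cre cuts in the epithelial cells of VP mice, was at 124.94, 99.30 and 147.45 TPM in Trp53fl/fl and 38.45, 32.79 and 27.83 TPM in VP. This log2 fold change of -1.87 passed the limma adjustment (adjusted p = 0.0207) but did not do so in 6 of the 15 alternative settings. TPM, the abundance measure of the deposited table, are scaled for transcript length and to the same total in each tumor, so levels of different genes can be set side by side, while the depth is unknown. The 12 epithelial markers, among them *Epcam* and *Krt8*, and the markers of 5 other cell types were detected, with none at 0 in all 6 tumors. The epithelial sum was higher in every VP tumor (10186 to 11355 TPM) than in any Trp53fl/fl tumor (9375 to 9804 TPM). Of the 12 epithelial markers, only *Krt19* and *Cldn7* were higher in every VP tumor. *Krt19* had means of 2080 TPM in Trp53fl/fl and 2727 TPM in VP. The median log2 fold change of the 12 was 0.06, and that of *Epcam* was 0.0028. The sum of the 10 neutrophil markers was also higher in every VP tumor (1135 to 1872 against 295 to 634 TPM). *S100a8* and *S100a9* were the largest terms of this sum. All 8 tested neutrophil markers had a log2 fold change above 0, and 6 were higher in every VP tumor, as were 6.03% of all genes. *Csf3r* and *Mmp9*, at 0.07 and 0.23, overlapped. *Ngp*, a granule gene with the highest log2 fold change of the 8, was at 0.21 to 0.81 TPM in Trp53fl/fl and 18.17 to 48.44 TPM in VP (limma adjusted p = 0.00804). *Elane* and *Mpo* stayed at 0 to 0.36 TPM and were not tested. The sums of the endothelial, mural, fibroblast and leukocyte markers overlapped. The fibroblast markers *Lum* and *Pdgfra* were lower and *Cd68* of macrophages was higher in every VP tumor. Their log2 fold changes of -0.57, -0.56 and 0.53 did not pass the adjustment, and other markers of these lists went the other way. *Col1a1* and *Col1a2* were at 0.25 and 0.11, and *Csf1r* and *Ptprc* at -0.08 and -0.36. Of the 6 fibroblast markers 4 were below 0 and 2 above, and of the 6 leukocyte markers 3 and 3. Fold changes are VP minus Trp53fl/fl on the log2(TPM + 1) scale, which understates those of weakly expressed genes, and were tested with limma over 15117 genes. In bulk tumors, fewer cells of a type and less RNA per cell cannot be told apart.

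None of the 10 members differed between the genotypes with a limma adjusted p-value under 0.05, against 0.165% of all genes tested, and the smallest adjusted p-value among them was 0.477, for *Dll1*. None had an unadjusted p-value under 0.05, which 12.5% of all genes had. With epithelial or endothelial centring 1 did, *Notch1*, at log2 fold changes of -0.36 and -0.37, as did 21.5% and 16.6% of all genes. All 10 overlapped between the genotypes, whereas 19.3% of all genes did not. Their log2 fold changes ran from -0.28 for *Notch3* to 0.36 for *Dll1*, 6 were above 0 and 4 below (2 and 8 when each tumor was centred on the epithelial or on the endothelial markers), and the median was 0.02 against -0.07 over all genes. A p-value that misses the threshold does not show equal levels, and the 95% intervals give what these tumors leave possible. As folds of TPM + 1, the narrowest was that of *Hes1*, from 0.83-fold to 1.28-fold, and the widest that of *Jag2*, from 0.66-fold to 1.60-fold. No member's interval reached a 2-fold difference of TPM + 1 in either direction. In TPM itself the bounds lie further out, most so for the members at low levels, so a 2-fold difference of TPM is not excluded for each of them.

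**Figure D1:**
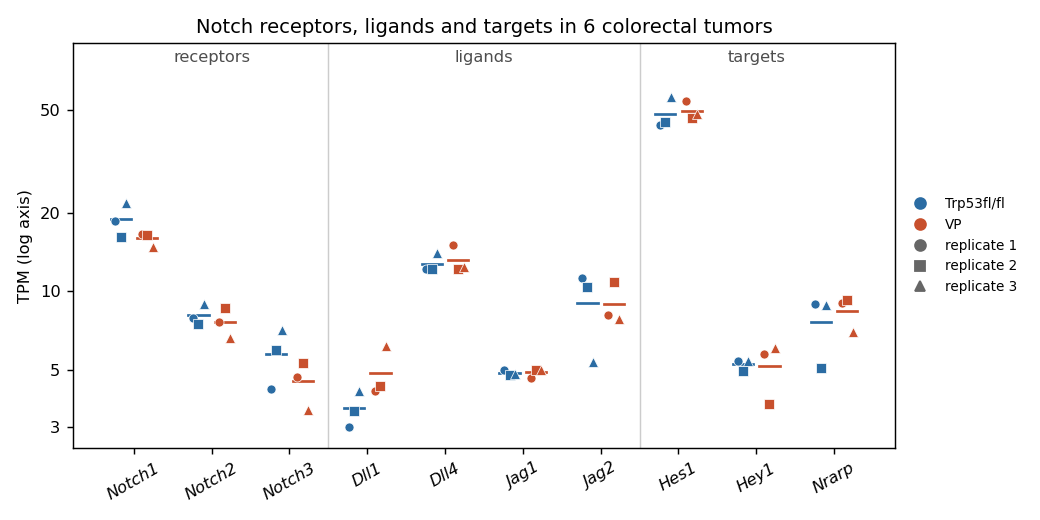
TPM (log axis) of the 10 members in each tumor, with Trp53fl/fl in blue, VP in orange, 1 symbol per replicate number and a bar at the mean of each genotype. Hes1 stands highest in every tumor, at 43.80 to 56.07 TPM, and the points of both genotypes overlap for all 10 genes.

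The members kept much of their order from tumor to tumor. *Hes1* was first in all 6 tumors, *Notch1* exceeded *Dll4* in 6 of 6, and *Dll4* exceeded *Jag2* in 6 of 6. *Jag2*, *Nrarp* and *Notch2* were close, with *Jag2* above *Nrarp* in 4 of 6 and *Nrarp* above *Notch2* in 4 of 6. *Notch2* exceeded *Hey1* in 6 of 6, while *Hey1*, *Notch3* and *Jag1* did not separate, *Hey1* being above *Notch3* in 3 of 6 and *Notch3* above *Jag1* in 4 of 6. *Dll1* had the lowest mean, 4.21 TPM over the 6 tumors, and was below *Jag1* in 5 of 6. Against all 15117 genes tested, the mean of *Hes1* exceeded those of 79.9% and the mean of *Dll1* those of 21.2%.

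**Figure D2:**
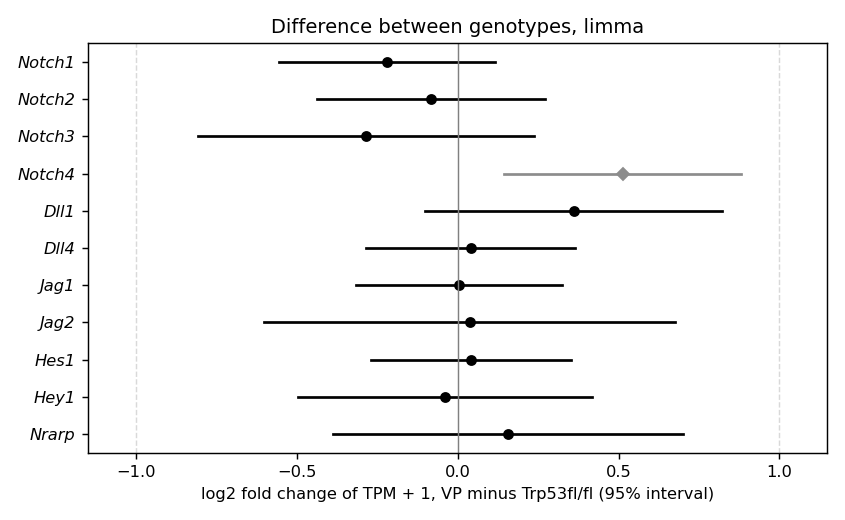
Log2 fold change of TPM + 1, VP minus Trp53fl/fl, with its 95% interval from limma (line) for the 10 members in black and for Notch4, which is not a member, in grey; dashed lines mark 2-fold differences. All 10 intervals of the members include 0, and the interval of Notch4 runs from 0.14 to 0.88.

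Among the receptors, *Notch1*, the receptor that with *Notch2* maintains intestinal progenitors, was at 18.65, 16.14 and 21.94 TPM in Trp53fl/fl and 16.59, 16.48 and 14.86 TPM in VP. The VP tumors lay close together, 2 of them just above the lowest Trp53fl/fl tumor and 1 below it. Its mean was 18.9 ± 2.91 TPM in Trp53fl/fl and 16.0 ± 0.969 TPM in VP (SD, n = 3 each), and the log2 fold change was -0.22 with a 95% interval from -0.56 to 0.11 (limma adjusted p = 0.534). *Notch2* was at 7.89, 7.48 and 8.97 TPM and at 7.65, 8.62 and 6.60 TPM, with a log2 fold change of -0.08 (95% interval -0.44 to 0.27), and its genotypes were mixed throughout the range.

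*Notch3* was at 4.20, 5.97 and 7.07 TPM in Trp53fl/fl and 4.70, 5.32 and 3.49 TPM in VP. Its spread within the Trp53fl/fl tumors, from the lowest but one value to the highest of all 6, was wider than the difference between the genotypes, whose log2 fold change of -0.28 had a 95% interval from -0.81 to 0.24 (limma adjusted p = 0.605). The 10 pericyte and smooth muscle markers, the cells in which *Notch3* is best known, summed to 468 to 702 TPM in the Trp53fl/fl tumors and to 386 to 1079 TPM in the VP tumors, without a shared order. VP replicate 3 was the lowest for both, but VP replicate 2, with the highest sum, had 5.32 TPM of *Notch3*. Trp53fl/fl replicate 2, with the lowest sum but one, had 5.97 TPM. *Acta2* and *Tagln*, at 157 to 329 and 121 to 337 TPM, were the largest terms of the sum. Of the 10 markers 8 had a log2 fold change above 0, and *Rgs5* and *Pdgfrb* were below, at -0.39 and -0.15. *Pdgfrb*, like *Notch3*, was highest in Trp53fl/fl replicate 3 and lowest in VP replicate 3. *Rgs5* was highest in Trp53fl/fl replicate 2 and also lowest in VP replicate 3. Whether mural cells had a part in the values of *Notch3* was not tested.

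The ligand with the highest level was *Dll4*, at 12.15, 12.16 and 14.05 TPM in Trp53fl/fl and 15.05, 12.15 and 12.40 TPM in VP. Of the 6 tumors, 4 lay between 12.15 and 12.40 TPM, with 1 higher tumor in each genotype, and the log2 fold change was 0.04 (95% interval -0.29 to 0.36). The 12 endothelial markers summed to 157 to 195 TPM and to 189 to 199 TPM, and when each tumor was centred on them, a shift by the same amount for all genes, the log2 fold change was -0.10. *Dll1*, which acts with *Dll4* on intestinal stem cells, was at 3.01, 3.47 and 4.15 TPM in Trp53fl/fl and 4.14, 4.31 and 6.16 TPM in VP.

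For *Dll1* the VP value was higher in 8 of the 9 pairs of tumors, and the exception was a difference of 4.15 against 4.14 TPM, so the groups touched rather than separated. The share of all genes with 8 of 9 pairs in one direction was not computed, but 19.3% of all genes had all 9. The mean of *Dll1* was 3.54 ± 0.574 TPM in Trp53fl/fl and 4.87 ± 1.12 TPM in VP (SD, n = 3 each). Its log2 fold change was 0.36 (standard error 0.20, 95% interval -0.10 to 0.82, limma adjusted p = 0.477). In the alternative settings in which it was tested, all but that with a mean of at least 5 TPM, its log2 fold change stayed between 0.21 and 0.45, and the smallest limma adjusted p-value was 0.355.

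*Jag1*, a ligand of stromal, endothelial and epithelial cells, was the steadiest of the group, at 5.0, 4.78 and 4.80 TPM in Trp53fl/fl and 4.65, 4.99 and 4.98 TPM in VP. Its highest value was 1.08 times its lowest, its log2 fold change was 0.0030 and its 95% interval ran from -0.32 to 0.32. *Jag2* was at 11.22, 10.40 and 5.37 TPM and at 8.14, 10.85 and 7.84 TPM. The low value of Trp53fl/fl replicate 3 set the spread of *Jag2*. Its means were 9.0 ± 3.17 TPM against 8.94 ± 1.66 TPM (SD, n = 3 each), and the log2 fold change of 0.04 was -0.26 without that tumor.

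The targets were led by *Hes1*, the repressor through which Notch acts on progenitors, at 43.80, 45.00 and 56.07 TPM in Trp53fl/fl and 54.14, 46.26 and 48.24 TPM in VP. The VP values lay within the Trp53fl/fl range. The means were 48.3 ± 6.76 TPM and 49.5 ± 4.10 TPM (SD, n = 3 each), and the log2 fold change was 0.04 with a 95% interval from -0.27 to 0.35 (limma adjusted p = 0.909). *Hey1*, a related repressor with a strong vascular role, was at 5.41, 4.94 and 5.38 TPM and at 5.76, 3.70 and 6.04 TPM, and here the VP tumors enclosed the Trp53fl/fl range. Its log2 fold change was -0.04 (95% interval -0.50 to 0.42).

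*Nrarp* encodes a small ankyrin-repeat protein that Notch induces and that in turn limits Notch signaling. It was at 8.96, 5.06 and 8.87 TPM in Trp53fl/fl and 9.0, 9.30 and 6.99 TPM in VP. In each genotype 1 tumor lay below the other two, Trp53fl/fl replicate 2 and VP replicate 3, and the log2 fold change of 0.16 (95% interval -0.39 to 0.70, limma adjusted p = 0.793) was -0.08 without the former. None of the 3 targets showed a difference beyond the spread between tumors. The tumor with the highest value was Trp53fl/fl replicate 3 for *Hes1*, VP replicate 3 for *Hey1* and VP replicate 2 for *Nrarp*. Trp53fl/fl replicate 3 also held the highest value of *Notch1*, *Notch2* and *Notch3*, and VP replicate 3 the lowest value of the same 3 receptors.

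**Figure D3:**
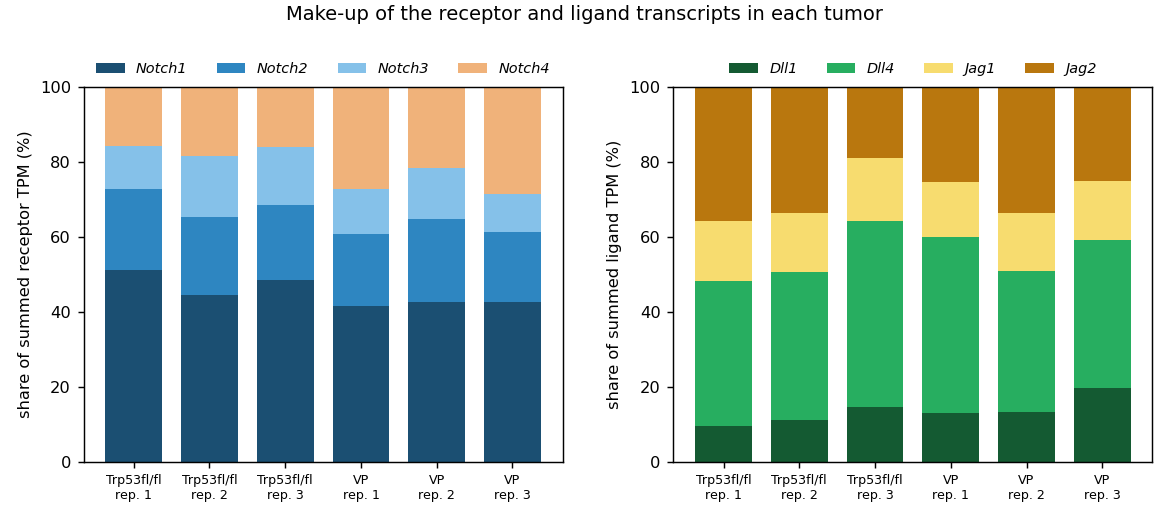
Share of the summed TPM of the 4 receptors (left) and of the 4 ligands (right) taken by each gene in each tumor, in percent, as stacked bars. Notch1 takes 41.7% to 51.2% of the receptor sum, and Notch4 takes 21.5% to 28.6% in the VP tumors against 15.6% to 18.3% in the Trp53fl/fl tumors.

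Summed over *Dll1*, *Dll4*, *Jag1* and *Jag2*, the ligands came to 30.2 ± 1.60 TPM in the Trp53fl/fl tumors and 31.9 ± 0.467 TPM in the VP tumors (SD, n = 3 each). *Dll4* made up 42.6 ± 6.03% and 41.4 ± 5.0% of this sum, *Jag2* 29.5 ± 9.19% and 28.0 ± 4.84%, *Jag1* 16.1 ± 0.721% and 15.3 ± 0.680%, and *Dll1* 11.8 ± 2.57% and 15.3 ± 3.75% (SD, n = 3 each). For the receptor sum *Notch4* was added to the 3 members. It came to 39.3 ± 5.13 TPM and 37.9 ± 2.57 TPM, and *Notch1* made up 48.1 ± 3.34% of it in the Trp53fl/fl tumors and 42.2 ± 0.497% in the VP tumors (SD, n = 3 each). Each VP tumor had a lower share of *Notch1* than each Trp53fl/fl tumor. The highest share in VP was 42.5% and the lowest in Trp53fl/fl 44.5%, and these shares have no test. The sum behind them includes *Notch4*, which was higher in every VP tumor, while the TPM of *Notch1* itself overlapped between the genotypes. Shares among the 3 members alone were not computed.

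*Notch4*, the receptor found chiefly in endothelial cells and outside the 10 members, was at 5.70, 6.64 and 7.23 TPM in Trp53fl/fl and 10.89, 8.35 and 10 TPM in VP. All VP tumors lay above all Trp53fl/fl tumors, as for 6.03% of all genes. The log2 fold change was 0.51 (standard error 0.16, 95% interval 0.14 to 0.88), with an unadjusted p-value under 0.05, as for 4.51% of all genes in that direction, but it did not pass the limma adjustment (adjusted p = 0.317). Of the 12 endothelial markers, 11 had a log2 fold change above 0, as had 5930 of all 15117 genes tested. Their median was 0.14, and *Vwf* alone did not overlap between the genotypes. With epithelial centring 7 of these 12 markers were above 0, and 9 were without Trp53fl/fl replicate 1. With each tumor centred on these markers the log2 fold change of *Notch4* was 0.37 (limma adjusted p = 0.302).

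**Figure D4:**
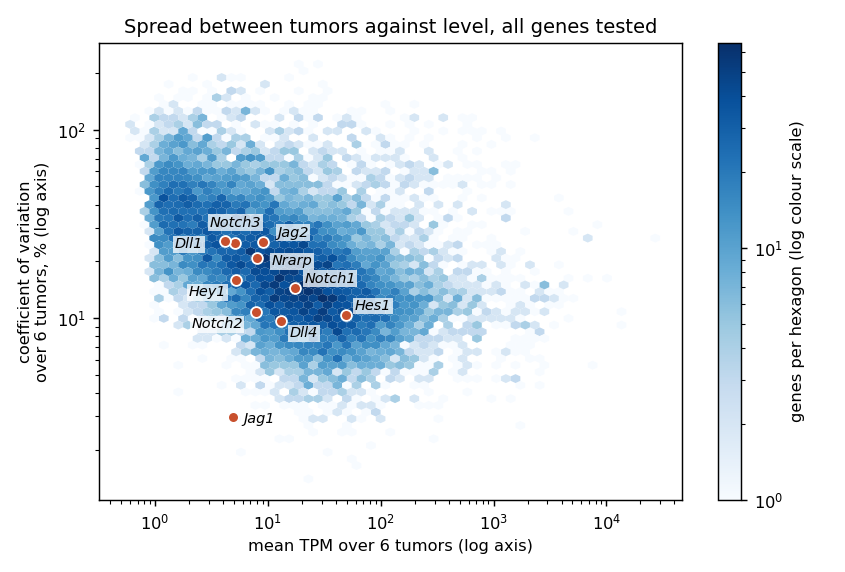
Coefficient of variation over the 6 tumors (percent, log axis) against mean TPM (log axis) for the 10 members (orange) over all genes tested (blue hexagons, shaded by the number of genes). Jag1 lies below almost all genes of like level at 2.97%, while the other 9 members lie among them at 9.62% to 25.6%.

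The spread over all 6 tumors, given as the coefficient of variation (SD over mean), was 2.97% for *Jag1*. Among 3930 genes with a mean within 2-fold of that of *Jag1* the median was 24.2%, and 1 gene had a lower value. This feature of *Jag1* was singled out after its values had been seen, and the rounding of TPM to 2 decimals is small against it. *Dll4* (9.62%), *Hes1* (10.3%), *Notch2* (10.8%), *Notch1* (14.4%) and *Hey1* (15.9%) also had a smaller spread than the median of genes of like level, which was 17.1%, 13.1%, 20.1%, 15.7% and 23.5%. *Jag2*, at 25.2%, exceeded the median of its like, 19.3%. *Nrarp* (20.9%), *Notch3* (25.1%) and *Dll1* (25.6%) lay close to theirs, 19.98%, 23.6% and 25.6%.

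The rest of the pathway was read from 60 further genes, of which 53 passed the expression filter. None of the 53 had a limma adjusted p-value under 0.05, and the smallest was 0.317, for *Notch4*. At an unadjusted p-value under 0.05, 1 was higher in VP tumors and 5 were lower, against 4.51% and 8.0% of all genes tested. These 6 became 19 with epithelial centring, 13 with endothelial centring and 3 with median-of-ratios rescaling, when 21.5%, 16.6% and 11.5% of all genes were under 0.05, and 1 without Trp53fl/fl replicate 1 (7.43% of all genes). The genes without overlap numbered 3 with every VP tumor higher and 12 with every VP tumor lower, against 6.03% and 13.3% of all genes. The median log2 fold change was -0.12, against -0.07 for all genes.

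Of the enzymes that attach sugars to the receptors, *Lfng*, which tunes the choice between Delta and Jagged ligands, was at 34.00, 31.16 and 46.32 TPM and at 21.09, 24.73 and 34.32 TPM. The VP tumors tended to the lower end but overlapped, with a log2 fold change of -0.47 (95% interval -0.98 to 0.04, limma adjusted p = 0.424). Its relatives *Mfng* and *Rfng* had log2 fold changes of -0.10 and 0.17, and *Mfng* was at 3.08 to 4.79 TPM in all tumors. *Pofut1*, which adds the first fucose, was at 14.39 to 15.67 TPM in the Trp53fl/fl tumors and at 15.98 to 19.69 TPM in the VP tumors, without overlap but with a limma adjusted p of 0.530.

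The proteases of the pathway had a median log2 fold change of 0.05 over 10 genes, with none at an unadjusted p-value under 0.05. *Adam10*, which makes the ligand-dependent cut, was at 97.97, 104.11 and 66.31 TPM and at 69.41, 60.66 and 73.56 TPM. The tumors overlapped only through Trp53fl/fl replicate 3, and the log2 fold change of -0.37 had an adjusted p of 0.446 in limma. *Aph1c* did not overlap, at 0.91 to 0.97 TPM and 1.12 to 1.65 TPM, but it is a near copy of *Aph1b*, and reads shared between the copies make its value uncertain.

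**Figure D5:**
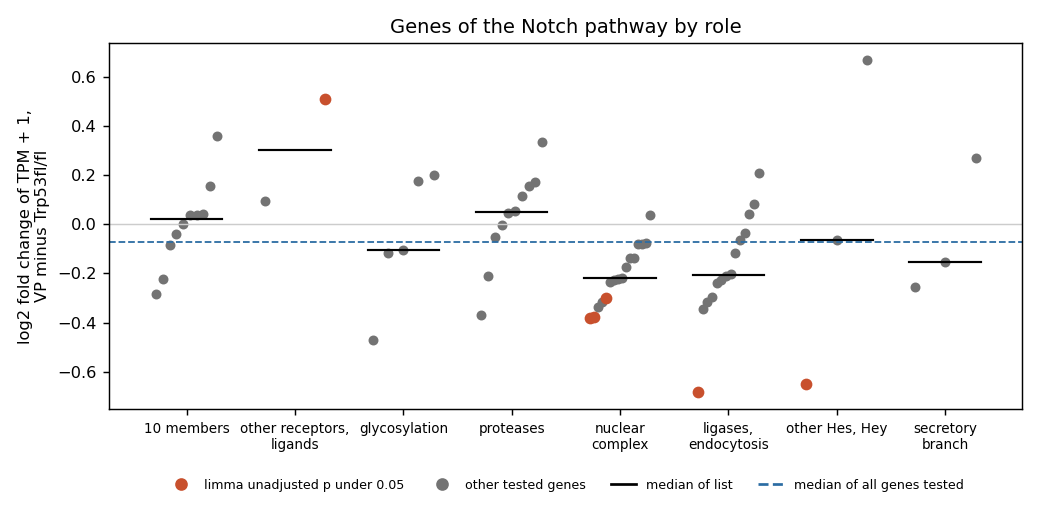
Log2 fold change of TPM + 1, VP minus Trp53fl/fl, of each tested gene by role in the pathway, with the median of each list (black bar) and of all genes tested (dashed line, -0.07); orange points have an unadjusted limma p-value under 0.05. The nuclear complex has 15 of 16 genes below 0, and the members spread on both sides of 0.

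Among the nuclear partners of the receptors, 15 of 16 genes were below 0, as were 60.8% of all genes tested, and the median log2 fold change was -0.22. The difference of that median from the median of all genes tested was -0.15. Both centrings, the replicate block and the dropped trend cannot change this difference. In the other alternative settings, which reuse the same tumors, it ran from -0.197 to -0.093. None of the 16 genes passed the limma adjustment. *Rbpj* itself was at 19.30, 20.97 and 20.18 TPM in Trp53fl/fl and 18.19, 18.03 and 18.46 TPM in VP. Its groups did not overlap, but they lay close, and the log2 fold change was -0.14 (95% interval -0.38 to 0.11, limma adjusted p = 0.600). The histone acetyltransferases *Ep300* and *Crebbp*, which Notch shares with many other pathways, had log2 fold changes of -0.38 and -0.38, and the demethylase *Kdm5a* had -0.30, each with an unadjusted p-value under 0.05 and with limma adjusted p-values of 0.340, 0.358 and 0.374. *Maml3* and *L3mbtl3* were also lower in every VP tumor, with log2 fold changes of -0.34 and -0.22 that did not pass the adjustment. Over the list 6 of 16 genes had every VP tumor lower, against 13.3% of all genes.

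Among the ubiquitin ligases and endocytic regulators, 11 of 14 genes were below 0 (60.8% of all genes), the median log2 fold change was -0.21 (-0.07 over all genes), and 6 of 14 had every VP tumor lower (13.3% of all genes). *Neurl1a*, a ligase for Notch ligands, had the lowest log2 fold change of the pathway genes, -0.68 (limma adjusted p = 0.341), at 19.60, 17.30 and 20.57 TPM against 13.75, 7.63 and 14.39 TPM. The other 5 were *Mib2*, *Numb*, *Fbxw7*, which marks the freed Notch domain for destruction, *Nedd4* and *Aak1*, with log2 fold changes from -0.32 to -0.12 and limma adjusted p-values from 0.409 to 0.651.

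Of the other Hes and Hey genes, *Hes5*, *Hes7* and *Hey2* stayed below 1 TPM in all 6 tumors, *Hes3* was listed at 0 in all 6, and *Heyl* was at 1.30 to 1.75 TPM with a log2 fold change of -0.06. The ligand *Dll3* exceeded 1 TPM in 1 tumor alone, at 1.5 TPM, and was not tested. *Hes6*, whose product opposes *Hes1*, was at 368.34, 294.75 and 372.00 TPM in Trp53fl/fl and 214.08, 155.73 and 312.60 TPM in VP, above *Hes1* in all 6. Its genotypes overlapped through VP replicate 3, and the log2 fold change of -0.65 (95% interval -1.23 to -0.07) had an unadjusted p-value under 0.05 and a limma adjusted p of 0.366.

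In the secretory branch that Notch restrains, *Atoh1* was at 23.38, 20.24 and 28.98 TPM in Trp53fl/fl and 17.75, 20.98 and 21.11 TPM in VP. The ranges overlapped, and the log2 fold change was -0.26 (95% interval -0.63 to 0.12, limma adjusted p = 0.521). *Gfi1* and *Spdef*, which act after *Atoh1*, had log2 fold changes of -0.15 and 0.27 with overlapping values, and *Neurog3* stayed below 1 TPM.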

How the data were processed

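RNA was extracted from 6 colorectal tumors, 3 per genotype, and poly(A)-selected libraries were sequenced from both ends. The authors deposited TPM per gene, rounded to 2 decimals, for each tumor without pooling, and the submitters' processing notes name HISAT2, StringTie and the build mm9, without versions. The annotation release and the read filters are not given in the sources used here. TPM keep no depth, so no count test, counting interval or detection floor was possible, and because each column sums to a fixed total, a shift in abundant transcripts moves all others.

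Columns were assigned through the codes in the sample labels. Values were taken as log2(TPM + 1) for the 15117 genes that reached 1 TPM in 3 or more tumors and fitted with limma 3.58.1 in R 4.3.3 (empirical Bayes with trend, two-sided, Benjamini-Hochberg adjustment over all genes tested). The 95% intervals came from the same fit. In values simulated for 15117 genes, the fit recovered 56 of 100 genes changed 2-fold in TPM + 1 and 90 of 100 changed 4-fold, with 7 false calls. Promoters were read from RefSeq (GRCm38.p6), a different build from that of the notes, so no coordinates are given for the genes themselves. The replicate numbers were not treated as pairs in the main fit. In their deviations from the genotype means, same-numbered tumors correlated at -0.052 to 0.019 and differently numbered ones at -0.108 to 0.095. With 3 tumors per genotype these values cannot show whether the numbers stand for a pairing. No 2 columns were identical.

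The members and gene lists were chosen with earlier results of these data known. Of the other pathway genes, those with an unadjusted p-value under 0.05 or without overlap are named, together with a fixed set (*Notch4*, *Dll3*, *Rbpj*, *Lfng*, *Mfng*, *Rfng*, *Adam10*, *Hes5*, *Hes6*, *Hes7*, *Hey2*, *Heyl*, *Atoh1*), of which 1 further gene is not reported here. The marker lists are described by counts and sums, with some single markers named beside them. Alternatives left out each tumor in turn, blocked on replicate number, dropped the trend, dropped the filter or raised it to a mean of 5 TPM, lowered the pseudocount to 0.1, rescaled by median of ratios, normalized quantiles, or centred each tumor on the 12 epithelial or the 12 endothelial markers.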

Additional observations from a re-analysis of the deposited data

How the results depend on the processing

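No member and no other pathway gene passed the limma adjustment in any of the 15 alternatives, and the adjusted p-values of the members stayed between 0.214 and 1.00. Signs of small log2 fold changes did turn. With epithelial centring *Dll4*, *Jag1*, *Jag2* and *Hes1* were at -0.10, -0.14, -0.10 and -0.097, and with endothelial centring at -0.10, -0.14, -0.11 and -0.10. Both centrings move the median of all genes tested from -0.07 to -0.21, which lowers all genes alike. *Hey1* was at 0.019 with median-of-ratios rescaling and at 0.041 with quantile normalization, which also put *Notch2* at 0.0076. With a tumor left out, *Notch2* ran from -0.17 to 0.0048, *Dll4* from -0.052 to 0.10, *Jag1* from -0.012 to 0.031, *Jag2* from -0.26 to 0.21, *Hes1* from -0.023 to 0.15, *Hey1* from -0.15 to 0.14, *Nrarp* from -0.081 to 0.28, *Mfng* from -0.23 to 0.0096 and *Heyl* from -0.12 to 0.0006. The signs of *Notch1*, *Notch3* and *Dll1* held in every alternative run. With a mean of at least 5 TPM, *Jag1* and *Dll1* were not tested.

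The 25 genes called among all genes became 7 without the filter, 40 with epithelial centring and 10 with the replicate block, and 3 to 23 with a tumor left out, namely 3, 14 and 9 without Trp53fl/fl replicates 1, 2 and 3 and 7, 5 and 23 without VP replicates 1, 2 and 3, where fewer tumors were fitted. Higher calls made up 48.0% of the 25, 59.1% with median-of-ratios rescaling and 37.5% with epithelial centring. The log2 fold change of *Trp53*, -1.87, was the same without the filter (limma adjusted p = 0.104) and with the replicate block (-1.87, adjusted p = 0.0883). Leaving out each tumor in turn gave -2.02 to -1.74, with adjusted p-values above 0.05 without Trp53fl/fl replicate 1 (0.0968), without Trp53fl/fl replicate 3 (0.0561), without VP replicate 1 (0.0605) and without VP replicate 2 (0.108). The replicate block changed no call of a member. The depth is unknown, so precision rests on 3 tumors per genotype.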

Other observations

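*Dlk1*, *Hes2* and the ratio of *Hes6* to *Hes1* were chosen after their values had been seen. *Dlk1*, a Delta-like protein that lacks the part by which Delta ligands bind Notch, varied more than any member, at 36.08, 5.01 and 6.67 TPM in Trp53fl/fl and 14.86, 5.19 and 20.18 TPM in VP. Its highest value was 7.20 times its lowest, with no order by genotype, and the log2 fold change of 0.09 had a 95% interval from -1.66 to 1.85. *Hes2*, a weakly expressed Hes gene, was at 1.08, 0.59 and 1.54 TPM and at 3.49, 2.23 and 1.33 TPM, with a limma adjusted p of 0.416. Its VP value was higher in 8 of 9 pairs of tumors, a count whose share over all genes was not computed. Within a tumor, *Hes6* was 8.41, 6.55 and 6.63 times *Hes1* in the Trp53fl/fl tumors and 3.95, 3.37 and 6.48 times *Hes1* in the VP tumors. The ratio was lower in each VP tumor, narrowly so for VP replicate 3, and was not tested.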
